A study of Homo sapiens with 6 samples.

Results

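The haematopoietic cytokine receptor chains described here are 9 genes, IL6R, IL6ST, IL3RA, CSF2RA, CSF2RB, CSF3R, EPOR, IL2RG and IL10RB, chosen by name, and each has 1 row among the 34371 rows of the count table. They were measured in ME-1, a human acute myeloid leukaemia line that carries the CBFB::MYH11 fusion. One group of 3 libraries came from ME-1 cells given an empty control vector and the other 3 from ME-1 cells given a vector that overexpresses SPNS2, an exporter of sphingosine-1-phosphate, and both groups had been selected for infected cells before polyadenylated RNA was taken. The vector's promoter and the number of clones were not found in the sources used here. Nothing in the labels ties the 3 libraries of either group to different cultures, so p-values measure only the spread between these libraries, which may be technical.

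Cytokine receptors of this kind have no kinase of their own. A ligand brings together a ligand-binding chain and a signalling chain, the Janus kinases held by their cytoplasmic tails phosphorylate each other and the receptor, and STAT transcription factors dock and move to the nucleus. Several chains are shared: IL6ST (gp130) serves the interleukin-6 family, CSF2RB (the common beta chain) serves interleukin-3, interleukin-5 and GM-CSF, IL2RG (the common gamma chain) serves the interleukin-2 family, and IL10RB serves the interleukin-10 family and interferon lambda. CSF3R and EPOR work as homodimers for G-CSF and erythropoietin. In myeloid progenitors these receptors carry survival, proliferation and differentiation signals.

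Reference sequence from the 250 bases before the start site is shown for the 3 chains whose rise passed under every alternative tried, IL6R, IL3RA and CSF3R, and for CSF2RA, the other alpha chain that pairs with CSF2RB. The letters are RefSeq's (GRCh38.p14), 5′ to 3′ on the gene's strand, limited to bases outside exons of GENCODE 29, and the last printed base lies 151 bases before the start for IL6R, 170 for IL3RA, 1 for CSF3R and 15 for CSF2RA. In these stretches, capitals mark matches to the motifs named after them. RefSeq's table matched 8 of the 9 genes.
IL6R, chr1:154405093-154405192, plus strand: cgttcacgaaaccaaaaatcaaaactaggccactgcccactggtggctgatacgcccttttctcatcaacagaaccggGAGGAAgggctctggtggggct
IL3RA, chrX:1336535-1336615, plus strand: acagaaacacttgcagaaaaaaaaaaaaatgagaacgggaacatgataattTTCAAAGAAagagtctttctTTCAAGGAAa
CSF3R, chr1:36483315-36483564, minus strand: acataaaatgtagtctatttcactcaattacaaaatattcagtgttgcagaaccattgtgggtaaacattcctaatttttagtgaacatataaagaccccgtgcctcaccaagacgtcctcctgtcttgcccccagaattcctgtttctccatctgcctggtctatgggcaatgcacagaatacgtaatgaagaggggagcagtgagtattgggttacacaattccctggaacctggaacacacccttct
CSF2RA, chrX:1268564-1268799, plus strand: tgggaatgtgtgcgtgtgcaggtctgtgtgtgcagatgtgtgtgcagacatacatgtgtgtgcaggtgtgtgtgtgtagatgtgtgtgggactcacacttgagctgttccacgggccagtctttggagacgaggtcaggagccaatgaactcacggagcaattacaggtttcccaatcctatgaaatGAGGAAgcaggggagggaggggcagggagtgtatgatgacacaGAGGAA

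Capitals mark letters searched on both strands in the 250 bases before each start: TTCNNNGAA (STAT), TGTGGT (RUNX), TGANTCA (AP-1), GAGGAA (PU.1) and CCGGAA (ETS). The stretch of IL3RA held 2 matches to the STAT letters, TTCAAAGAA starting 199 bases and TTCAAGGAA starting 179 bases before the start site. At least 1 STAT match stood in 6.57% of all 34961 start windows of the same length, and 2 or more in 0.355%. The PU.1 letters stood in 5 of the 9 start windows of these genes, against 23.6% of all windows, and the ETS letters in 2, against 14.5%. Windows were counted whole, with their bases in annotated exons. The only PU.1 matches of CSF3R, IL2RG and IL10RB and the ETS match of IL6ST lay in such exon bases. RUNX and AP-1 letters were in none of the 9 (11% and 6.54% of all windows). CSF3R has 2 RefSeq starts, the window printed held no match, and the other lies wholly in annotated exons and is not printed. No matches of different motifs overlapped in these 9 windows. A match is a run of letters, not a binding site.

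The libraries held 28605187 to 38489992 counts. The row for the optimized SPNS2 sequence, which checks the labels, had 25283, 24792 and 25752 counts in the SPNS2 libraries against 9, 3 and 0 in the controls. Levels are given in CPM, a library's counts rescaled so that libraries of different depth can be compared. Of 14 myeloid markers 11 were tested, and their sum, nearly all of it MPO, was 28000 to 28500 CPM in the controls and 27900 to 29400 CPM with SPNS2. Within that list 2 markers rose and 3 fell past the threshold given below, 45.5% of the 11 tested, beside 24.5% of all tested features. KIT, a progenitor receptor, rose from 1567 to 2287 CPM and the leukocyte antigen PTPRC from 83.7 to 100.1 CPM. CD34, another progenitor marker, fell from 120.4 to 101.4 CPM, the myeloid antigen CD33 from 37.4 to 22.9 CPM and the lysozyme gene LYZ from 8.38 to 6.71 CPM. The defining fusion partner MYH11 had 39 counts over the 6 libraries, and fusion transcripts were not analysed here. Of markers of other lineages, the haemoglobin genes HBA1, HBB and HBG1, the platelet genes PF4 and PPBP, the T cell gene CD2, the B cell gene MS4A1 and the keratins KRT18 and KRT19 had 0 counts. Summed over 5 B cell markers the level was 10.4 to 11.5 CPM in the controls and 12.9 to 14 CPM with SPNS2, over 5 T cell markers 3.69 to 4.74 and 2.96 to 3.5 CPM, over 7 erythroid markers 2.39 to 2.72 and 1.91 to 2.17 CPM, and over 5 megakaryocyte markers 2.92 to 3.22 and 2.17 to 2.55 CPM. The 5 epithelial markers summed to 119 to 128 and 141 to 144 CPM, nearly all of it EPCAM, and the 5 fibroblast markers to 0.124 to 0.316 and 0.0637 to 0.247 CPM. What part these differences have in the changes of the receptor chains was not tested.

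Of the 9 chains, 4 rose with SPNS2, 0 fell and 5 did not pass the threshold, an adjusted p of 0.05 in edgeR's quasi-likelihood test with Benjamini-Hochberg adjustment over all 13308 tested features. Among all tested features 24.5% passed in either direction and 11.9% rose. The 9 chains were chosen with earlier results of these data known, so their share is not independent evidence. The ligand-binding chain IL6R rose most, followed by IL3RA, the G-CSF receptor CSF3R and, narrowly, CSF2RB. The median log2 fold change of the 9 chains was 0.09, beside 0.00263 over all tested features. All 9 passed the filter on low counts. These are bulk libraries, in which a higher share of cells that express a chain and more RNA per cell cannot be told apart.

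**Figure D1:**
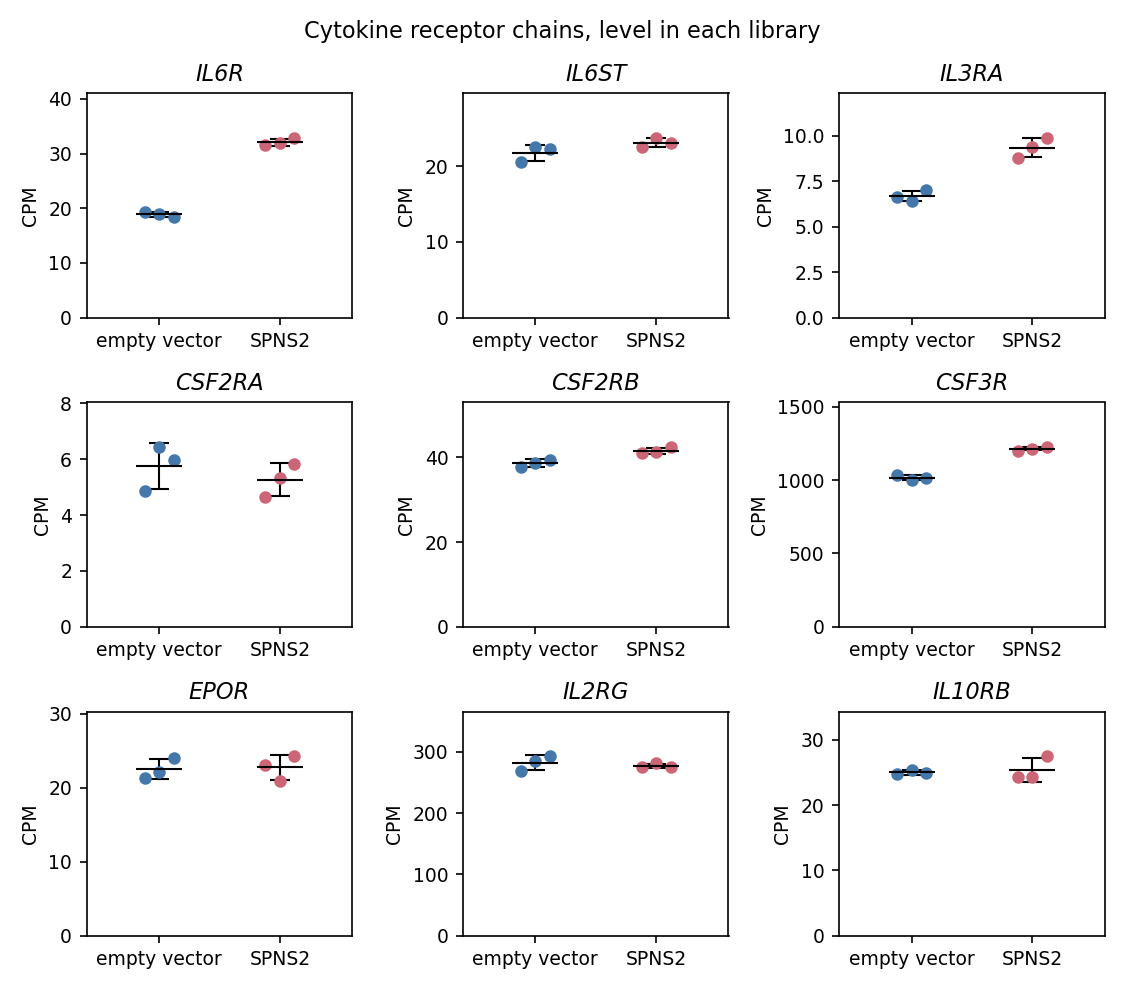
CPM of each of the 9 chains in each library (points, 3 per group), with the mean and SD of each group in black and every axis starting at 0. The groups stand well apart for IL6R, IL3RA and CSF3R, narrowly apart for CSF2RB and IL6ST, and overlap for CSF2RA, EPOR, IL2RG and IL10RB.

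IL6R (ENSG00000160712.13) binds interleukin-6 and has little signalling function without IL6ST. Its level was 19.4, 18.9 and 18.4 CPM in the empty vector libraries and 31.6, 31.9 and 32.8 CPM in the SPNS2 libraries. Every SPNS2 library stood above every empty vector library, and libraries within a group lay close together. The means were 18.9 ± 0.514 and 32.1 ± 0.642 CPM (SD, n = 3 each), a 1.70-fold rise. On the log2 scale this was 0.76 (SE 0.0449, 95% interval 0.66 to 0.86, adjusted p = 1.35e-06 by edgeR), and 1.61% of tested features had a larger rise. Membrane and soluble forms of IL6R come from 1 gene and are not separated in a count per gene.

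IL6ST (ENSG00000134352.20), the signalling partner of IL6R, was at 20.6, 22.6 and 22.25 CPM with the empty vector and 22.6, 23.7 and 23.1 CPM with SPNS2. The highest empty vector library (22.58 CPM) and the lowest SPNS2 library (22.61 CPM) nearly met. The means were 21.8 ± 1.07 and 23.1 ± 0.537 CPM (SD, n = 3 each), with a log2 fold change of 0.09 that did not pass (95% interval -0.02 to 0.20, adjusted p = 0.246 by edgeR). A rise of the size seen for IL6R lies outside that interval. Without empty vector replicate 1 the value was 0.05.

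IL3RA (CD123, ENSG00000185291.12), the interleukin-3 binding chain and a surface antigen widely used to follow myeloid leukaemia, rose. It was at 6.61, 6.43 and 6.98 CPM with the empty vector and 8.79, 9.36 and 9.85 CPM with SPNS2, from 183 to 332 counts per library. The groups did not overlap. The means were 6.67 ± 0.283 and 9.33 ± 0.528 CPM (SD, n = 3 each), a 1.40-fold rise. On the log2 scale the difference was 0.48 with an SE of 0.0831 and a 95% interval of 0.30 to 0.67 (edgeR adjusted p = 0.00175), and 4.13% of tested features had a larger rise.

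CSF2RA (ENSG00000198223.17), the GM-CSF binding chain, did not pass. It was at 4.85, 6.43 and 5.99 CPM with the empty vector and 4.66, 5.32 and 5.84 CPM with SPNS2. The groups overlapped over most of their ranges. CSF2RA held 151 to 197 counts per library, and its empty vector libraries had an SD of 0.814 CPM on a mean of 5.76 CPM. The log2 fold change of -0.12 had a 95% interval of -0.40 to 0.16 (adjusted p = 0.548 by edgeR), so changes in either direction inside that interval are not excluded. The value moved to -0.23 without empty vector replicate 1, -0.20 without SPNS2 replicate 3, and -0.04 without empty vector replicate 2 or SPNS2 replicate 1, and did not pass in any of these. IL3RA and CSF2RA lie in the part of the X chromosome that is shared with Y, and each had 1 row.

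CSF2RB (ENSG00000100368.14), the beta chain that both of these use, was at 37.7, 38.8 and 39.45 CPM with the empty vector and 41.1, 41.2 and 42.4 CPM with SPNS2. The groups did not overlap, but the step between them was small, from a mean of 38.6 ± 0.873 to 41.6 ± 0.715 CPM (SD, n = 3 each). It passed narrowly, at 0.11 on the log2 scale (SE 0.0347, 95% interval 0.03 to 0.18, edgeR adjusted p = 0.0463). The call was lost when any 1 of the 6 libraries was left out (adjusted p from 0.0767 to 0.170), with limma voom (0.0603), with the DESeq2 Wald test (0.222), with no filter on low counts (0.0880) and with a replicate block (0.0750).

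CSF3R (ENSG00000119535.18), the G-CSF receptor that drives granulocyte production, rose. It was at 1032, 999.1 and 1015 CPM with the empty vector and 1201, 1214 and 1223 CPM with SPNS2. The groups stood apart with little spread inside either. The mean rose 1.19-fold, from 1015 ± 16.4 to 1213 ± 10.998 CPM (SD, n = 3 each). The difference on the log2 scale was 0.26 with an SE of 0.0211 and a 95% interval of 0.21 to 0.30 (edgeR adjusted p = 1.61e-05). Among tested features, 10.8% had a larger log2 rise.

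EPOR (ENSG00000187266.14), the erythropoietin receptor of red cell precursors, did not pass. It was at 21.4, 22.2 and 24.0 CPM with the empty vector and 23.1, 20.9 and 24.2 CPM with SPNS2, in overlapping ranges. Its log2 fold change was 0.02 (95% interval -0.12 to 0.16, adjusted p = 0.876 by edgeR).

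IL2RG (ENSG00000147168.13), the common gamma chain of lymphoid cytokine receptors, did not pass. It was at 268.6, 284.2 and 292.4 CPM with the empty vector and 275.2, 280.8 and 274.5 CPM with SPNS2. All 3 SPNS2 libraries lay inside the range of the empty vector libraries. The log2 fold change was -0.02 (adjusted p = 0.625 by edgeR), and its 95% interval of -0.10 to 0.05 was the narrowest among the chains that did not pass.

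IL10RB (ENSG00000243646.10), the shared chain of receptors for the interleukin-10 family, was at 24.7, 25.4 and 24.95 CPM with the empty vector and 24.3, 24.4 and 27.5 CPM with SPNS2. One SPNS2 library lay above the others and the groups overlapped. The log2 fold change was 0.02 (95% interval -0.10 to 0.14, adjusted p = 0.837 by edgeR). Its reads overlap those of the readthrough gene IFNAR2-IL10RB, whose row held 13% of the summed counts with the empty vector and 13.8% with SPNS2. Summing both rows gave 0.04 on the log2 scale (edgeR adjusted p = 0.600), an alternative added after the data were seen.

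**Figure D2:**
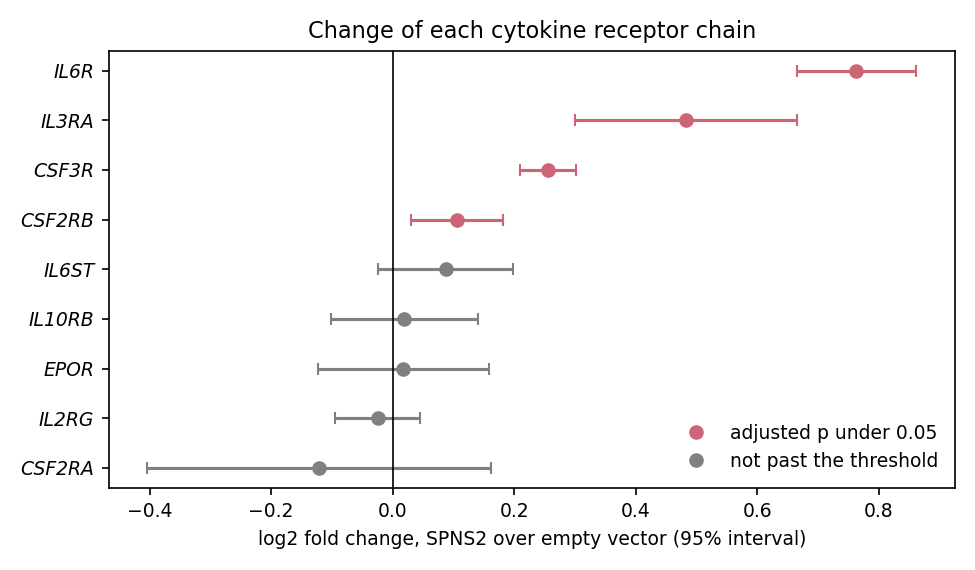
Log2 fold change of each chain in SPNS2 over empty vector libraries, with its 95% interval (n = 3 each). IL6R, IL3RA, CSF3R and CSF2RB pass the threshold, with values from 0.11 to 0.76, and the intervals of the other 5 cross 0.

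The groups did not overlap for 5 of the 9 chains (IL6R, IL6ST, IL3RA, CSF2RB and CSF3R), while 40.1% of all tested features had groups that did not overlap. IL6R, IL3RA and CSF3R passed under all 13 alternatives tried. Their log2 fold changes ranged from 0.74 to 0.78, from 0.44 to 0.52 and from 0.24 to 0.27 over these. The adjusted p stayed at or below 2.95e-05, 0.0130 and 0.000233. Neither of the remaining shared chains IL2RG and IL10RB, nor EPOR, IL6ST or CSF2RA, passed under any of these alternatives. The sign of the small differences depended on single libraries: EPOR was at -0.02 without empty vector replicate 1 and -0.03 without SPNS2 replicate 3, IL2RG at 0.00287 without empty vector replicate 3, and IL10RB at -0.04 without SPNS2 replicate 3, all on the log2 scale.

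Levels of different chains were compared per kilobase of the longest coding transcript in GENCODE 29. On this scale CSF3R was highest, at 294 ± 4.74 CPM per kilobase with the empty vector and 351 ± 3.18 with SPNS2, followed by IL2RG at 184 ± 7.89 and 180 ± 2.26 (SD, n = 3 each). IL10RB (11.7 and 11.9 CPM per kilobase), EPOR (9.34 and 9.44) and CSF2RB (7.95 and 8.55) came next. In the empty vector libraries IL3RA (3.91), IL6R (3.19), CSF2RA (2.51) and IL6ST (2.41) followed. With SPNS2 the order at the low end was IL3RA (5.47), IL6R (5.43), IL6ST (2.55) and CSF2RA (2.30). The ranges of the neighbours CSF2RA and IL6ST overlapped in both groups, as did those of IL3RA and IL6R with SPNS2 and those of EPOR and CSF2RB with SPNS2. The order depends on the transcript length used: with the median coding transcript length, IL2RG was above CSF3R in the empty vector libraries (426 against 357 CPM per kilobase) and IL6R was the third in both groups.

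A ligand-binding chain and its signalling chain can be compared within a library, where scaling between libraries has no effect. These counts are not divided by transcript length, so the size of a ratio does not rank its chains. Only its difference between the groups is read. Per kilobase of the longest coding transcript, IL6R was above IL6ST with the empty vector (3.19 against 2.41) and with SPNS2 (5.43 against 2.55). Counts of IL6R were 0.942, 0.837 and 0.826 times those of IL6ST with the empty vector and 1.40, 1.35 and 1.42 times with SPNS2. Every SPNS2 library had a higher ratio than every empty vector library. Counts of IL3RA were 0.175, 0.166 and 0.177 times those of CSF2RB with the empty vector and 0.214, 0.227 and 0.232 times with SPNS2, again with no overlap. Counts of CSF2RA were 0.129, 0.166 and 0.152 times those of CSF2RB with the empty vector and 0.113, 0.129 and 0.138 times with SPNS2, and these ranges overlapped. The mean log2 ratio differed by 0.68 for IL6R over IL6ST, 0.38 for IL3RA over CSF2RB and -0.23 for CSF2RA over CSF2RB. By an exact two-sided permutation test over the libraries p was 0.10, 0.10 and 0.30, or 0.15, 0.15 and 0.30 adjusted over the 3 ratios. With 3 libraries against 3 the smallest p possible is 0.10, so no ratio could pass 0.05. Leaving out SPNS2 replicate 1 or empty vector replicate 2 moved the difference in mean log2 ratio for CSF2RA over CSF2RB from -0.23 to -0.15 in both cases.

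**Figure D3:**
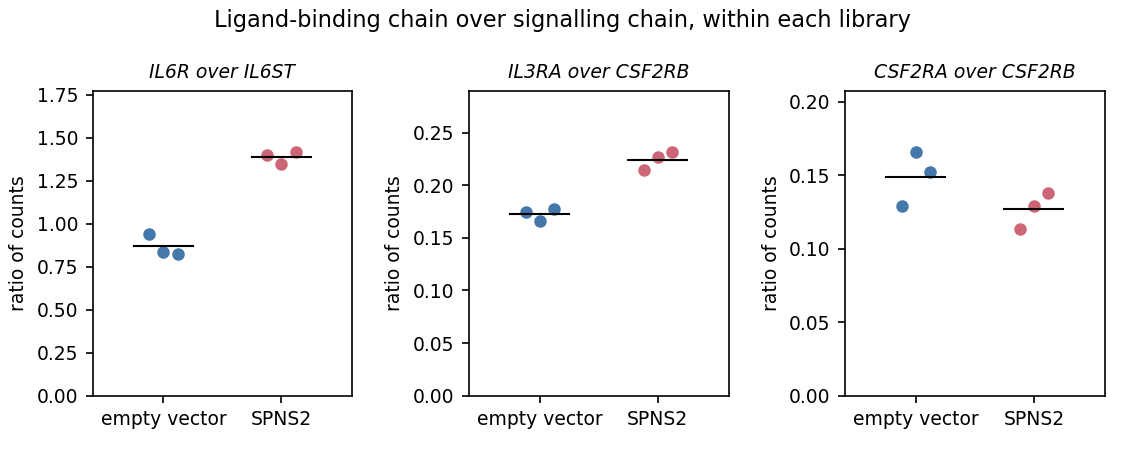
Ratio of the counts of a ligand-binding chain to those of its signalling chain within each library (points, 3 per group), with the group mean as a line and axes starting at 0. The ratio of IL6R to IL6ST lies between 0.826 and 0.942 with the empty vector and between 1.35 and 1.42 with SPNS2, IL3RA over CSF2RB is also apart, and CSF2RA over CSF2RB overlaps.

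Ligands of these receptors were scarce in the cells themselves. IL6, IL3, CSF2 (GM-CSF) and IL2 had 0 counts in all 6 libraries, which allows up to 0.0779 to 0.105 CPM in a library, for counting error only. CSF3 (G-CSF) had 8 counts, EPO 22 and IL10 23 over the 6 libraries. Of 20 ligands listed, 5 were tested and none passed (edgeR; 0 at an unadjusted p of 0.05, and 0 with DESeq2 or limma voom). OSM, a ligand of IL6ST complexes, was at 1.66 ± 0.131 and 1.91 ± 0.333 CPM, and CLCF1, another of that family, at 2.83 ± 0.412 and 3.07 ± 0.546 CPM (SD, n = 3 each). IL11 and CTF1, also IL6ST ligands, had log2 fold changes of 0.50 and -0.41 (edgeR adjusted p = 0.241 and 0.474).

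Other receptor chains changed in both directions. Of 29 listed, 18 were tested, 4 rose and 3 fell, with a median log2 fold change of -0.04. Of those tested 38.9% passed and 22.2% rose, beside 24.5% and 11.9% of all tested features. IL15RA, the interleukin-15 binding chain, rose from 2.44 ± 0.134 to 3.71 ± 0.511 CPM, and IL13RA1, a chain of interleukin-4 and interleukin-13 receptors, from 16.1 ± 0.646 to 19.4 ± 0.815 CPM (SD, n = 3 each). The growth hormone receptor GHR fell from 3.29 ± 0.202 to 1.85 ± 0.467 CPM and IL17RA, which belongs to a separate receptor family, from 39.04 ± 1.69 to 33.3 ± 0.928 CPM (SD, n = 3 each). Others that passed, named after their values were seen, included IL11RA, the interleukin-11 partner of IL6ST (0.22 on the log2 scale, adjusted p = 0.0187), and IL4R (-0.43, adjusted p = 0.0141 by edgeR). IL4R was not called without empty vector replicate 3 (0.0541) or SPNS2 replicate 1 (0.0601) or 2 (0.0569), and IL11RA not without empty vector replicate 1 (0.0582) or SPNS2 replicate 3 (0.0713). IL2RB and IL7R, which use IL2RG, had 6 and 5 counts over the 6 libraries, and IL5RA, which uses CSF2RB, had 1.

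Among the kinases and STAT factors below the receptors, 4 of 10 tested genes rose and none fell, with a median log2 fold change of 0.06. The genes that rose were 40% of those tested, while 24.5% of all tested features passed and 11.9% rose. JAK2, the kinase of EPOR, CSF3R and CSF2RB, was at 11.1, 12.8 and 11.3 CPM with the empty vector and 15.15, 14.9 and 14.4 CPM with SPNS2, without overlap. Its rise was 0.34 on the log2 scale (edgeR adjusted p = 0.00390). JAK3, the kinase of IL2RG, had 35.3 ± 1.98 and 43.2 ± 1.26 CPM, and STAT2, a factor of interferon signalling, had 61.3 ± 3.72 and 73.6 ± 1.603 CPM (SD, n = 3 each). Both passed, with rises of 0.29 and 0.26 on the log2 scale. JAK1, TYK2, STAT3, STAT5A, STAT5B and STAT6 did not pass. STAT3, the main factor below IL6ST and CSF3R, was at 99.7 and 102.9 CPM.

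Of 16 adaptors and kinases that link these receptors to RAS and PI3K, 4 were higher and 1 lower, with a median log2 fold change of 0.06. Thus 31.2% passed and 25% rose, beside 24.5% and 11.9% of all tested features. TEC, a tyrosine kinase of cytokine receptor signalling, had 31.1 ± 1.43 CPM in the controls and 45.1 ± 1.42 CPM with SPNS2 (SD, n = 3 each). That rise was 0.54 on the log2 scale (edgeR adjusted p = 1.37e-05). PIK3R1, a regulatory subunit of PI3K, rose by 0.25 and the exchange factor SOS2 by 0.14, while the adaptor CRKL fell by 0.11 on the log2 scale. SOS2 was not called without any 1 of empty vector replicates 1 and 3 and the 3 SPNS2 libraries (adjusted p from 0.0514 to 0.0884) or with DESeq2 (0.0894), and CRKL not without empty vector replicate 1 (0.0564) or 2 (0.0666) or SPNS2 replicate 3 (0.0793). The adaptor GRB2, named after its values were seen, also passed (0.08, adjusted p = 0.0230 by edgeR), a call lost without empty vector replicate 3 (0.0774), without SPNS2 replicate 1 (0.0871) or 3 (0.0670), with no filter (0.0523) and with a replicate block (0.0650). Without empty vector replicate 3, 2 adaptors rose and 1 fell, and without SPNS2 replicate 3, 3 rose.

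Some genes that damp the receptors passed. Of 19 attenuators, 5 rose and 1 fell, with a median log2 fold change of 0.05. That is 31.6% called and 26.3% higher, beside 24.5% and 11.9% of all tested features. CISH, which blocks STAT5 docking and is itself a STAT5 target, was at 53.1, 52.2 and 55.3 CPM with the empty vector and 65.6, 71.35 and 68.3 CPM with SPNS2. The groups stood apart, by 0.35 on the log2 scale (edgeR adjusted p = 0.000104). SOCS3, which binds IL6ST, CSF3R and EPOR, was at 3.60 ± 0.0253 and 4.78 ± 0.265 CPM, and USP18, a brake on interferon receptors, at 1.71 ± 0.204 and 2.87 ± 0.294 CPM (SD, n = 3 each), and both passed. SOCS2 rose by 0.17 on the log2 scale. SOCS3 was not called without SPNS2 replicate 1 (adjusted p = 0.0504) or 3 (0.0659) or with DESeq2 (0.0802), and SOCS2 not without empty vector replicate 3 (0.0549) or SPNS2 replicate 3 (0.0580). The other 2 attenuators past the threshold, named after their values were seen, were SOCS5 (0.16, adjusted p = 0.0476) and SH2B3, an adaptor that restrains JAK2 and the only one to fall (-0.10, adjusted p = 0.0421 by edgeR). SOCS5 was lost when any 1 library was left out (adjusted p from 0.0592 to 0.150), and SH2B3 without any 1 library other than empty vector replicate 3 (0.0742 to 0.143). Both were lost with DESeq2 (0.228 and 0.0954) and with a replicate block (0.0732 and 0.0673), SOCS5 also with limma voom (0.0540) and no filter (0.0894) and SH2B3 with no scaling (0.0663). The 6 calls fell to 3 without SPNS2 replicate 1, to 2 without SPNS2 replicate 3 and to 3 with DESeq2. PTPN6 (SHP-1), which dephosphorylates EPOR and the beta chain, was at 53.2 and 55.2 CPM and did not pass.

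Of 17 tested genes known as STAT targets, 8 rose and 0 fell, with a median log2 fold change of 0.17. The 8 were 47.1% of those tested, while 11.9% of all tested features rose and 24.5% passed in either direction. This list, like the 9 chains and the other lists, was chosen with earlier results of these data known. Its share is therefore not independent evidence, and STAT activity was not tested. PIM1, a survival kinase induced by STAT5 and STAT3, was at 12.04, 12.2 and 11.9 CPM with the empty vector and 22.4, 22.4 and 21.4 CPM with SPNS2. Its rise of 0.87 on the log2 scale (SE 0.0504) had an adjusted p of 1.24e-06 by edgeR. IRF1, an interferon-induced transcription factor, rose by 0.46 on the log2 scale and BCL3, a coactivator of NF-kB, by 0.75, from 2.16 ± 0.0759 to 3.64 ± 0.535 CPM (SD, n = 3 each). MCL1, BCL6, JUNB, PIM2, CCND2 and CCND3, in the same list, did not pass. CISH, SOCS1, SOCS2 and SOCS3 stand in this list and among the attenuators, so the counts of both are not independent. The survival gene BCL2L1 (0.13, adjusted p = 0.0125) and ID1 (0.24, adjusted p = 0.0233 by edgeR), named after their values were seen, completed the calls. BCL2L1 was lost without SPNS2 replicate 3 (0.0570) and with DESeq2 (0.0707). ID1 was lost without any 1 library other than empty vector replicate 2 (0.0502 to 0.0787), with DESeq2 (0.114), with no filter (0.0504) and with a replicate block (0.0590). The 8 calls fell to 4 without SPNS2 replicate 3 and to 5 with DESeq2.

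Of 12 genes linked to shedding, granule proteolysis or sorting of receptors, 1 passed (8.33%, beside 24.5% of all tested features), SORL1, a sorting receptor. Its level was 481.2 ± 15.7 CPM in the controls and 553.6 ± 17.4 CPM with SPNS2 (SD, n = 3 each), a rise of 0.20 on the log2 scale (edgeR adjusted p = 0.000838). The protease FURIN just missed (0.10, adjusted p = 0.0510 by edgeR) and passed under 7 alternatives, all 6 other scalings, tests and filters (adjusted p from 0.0298 to 0.04995) among them. Without empty vector replicate 1, 2 of the 12 rose and 1 fell. ADAM17, the protease that sheds IL6R, was at 39.9 and 42.0 CPM (log2 fold change 0.08, adjusted p = 0.204), and TM9SF4 was at 118.4 and 122.2 CPM (adjusted p = 0.314). Over all 7 lists of the pathway, 28 of 91 tested genes passed (30.8%, beside 24.5% of all tested features), 23 higher and 5 lower. Without SPNS2 replicate 3 it was 17.

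**Figure D4:**
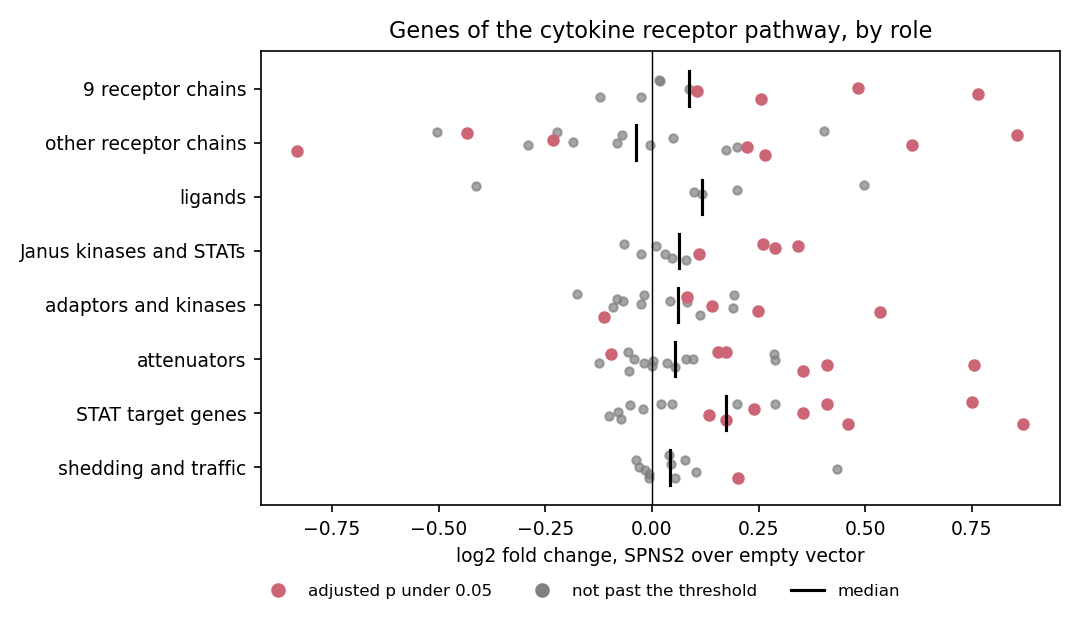
Log2 fold change, SPNS2 over empty vector, of each tested gene in the 9 chains and in 7 lists of pathway genes (1 point per gene, vertical spread without meaning, line at the median). Genes past the threshold lie mostly to the right of 0 in the lists of Janus kinases and STATs, adaptors, attenuators and STAT targets, and on both sides of 0 among the other receptor chains.

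For the 4 chains that passed, the gene with the most similar profile was sought among 11612 other genes with a symbol and a mean of at least 1 CPM, by Pearson correlation of log2 CPM over the 6 libraries. It was BCAS3 for IL6R (0.9992), SLC25A53 for IL3RA (0.9982), CRBN for CSF2RB (0.9999) and CBX2 for CSF3R (0.9997). All 6 points come from the same libraries and both groups, so a shared difference between the groups raises each value. The log2 fold change was 0.37 for BCAS3 beside 0.76 for IL6R, 0.55 for SLC25A53 beside 0.48 for IL3RA, 0.12 for CRBN beside 0.11 for CSF2RB and 0.21 for CBX2 beside 0.26 for CSF3R.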

How the data were processed

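RNA of 6 ME-1 libraries had been prepared with a TruSeq Stranded mRNA kit, per the labels' protocols. The authors deposited estimated counts per gene as whole numbers, made with Salmon per the submitters' processing notes. The version, build, annotation, strand setting and summing of transcripts are not given in the sources used, so reads shared between overlapping genes cannot be assigned with certainty. Symbols were found for 29081 of 34370 Ensembl rows.

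The filter was filterByExpr with a minimum count of 10 and a minimum total of 15. TMM factors were 0.993 to 1.01. The test was edgeR's quasi-likelihood F test with only the group in the model (edgeR 4.0.16, R 4.3.3), with Benjamini-Hochberg adjustment over all tested features. SE is the size of the log2 fold change divided by the root of F, and 95% intervals use it with the fit's degrees of freedom. CPM uses TMM-scaled totals. Alternatives were limma voom (limma 3.58.1), the DESeq2 Wald test (DESeq2 1.42.0), other scalings and filters, a replicate block and leaving out each library. The fit was tested on counts simulated from the means and library sizes of these data, with 50 genes changed at each size. It recovered 24% of 1.15-fold changes, 54% of 1.25-fold, 78% of 1.5-fold and 82% of 2-fold changes. Of its 122 calls, 3 were false. A small change that did not pass may therefore have been missed.

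The members and lists were chosen with earlier results of these data known. Genes named are all 9 chains, the 4 genes with the smallest p of each list, marker genes, the most similar gene of each chain that passed, and genes said to be named after their values were seen; other genes were named after the fact for their role. Replicates of a group differed beyond sampling noise (chi-square per degree of freedom 3.11 to 6.09). Some listed genes are counted but not reported here by name.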

Additional observations from a re-analysis of the deposited data

How the results depend on the processing

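The count of the 9 chains called was 4 and became 3 with DESeq2, limma voom, no low-count filter, the replicate block and without each single library, CSF2RB being the one lost. The 28 calls over the pathway lists ranged from 17 to 26 when 1 library was left out, and the 3263 calls over all features from 2246 to 2738. With the replicate block they were 22 and 2723. The labels do not say whether same-numbered libraries belong together. No pairing was seen: deviations of same-numbered libraries correlated at 0.0312, 0.0375 and -0.0193, and empty vector replicate 1 was closer to SPNS2 replicate 3 (0.0375). Such values cannot tell how the libraries were prepared. Calls lost with the block are given beside CSF2RB, GRB2, SOCS5, SH2B3 and ID1. When 1 library was left out, the log2 ratio difference ranged from 0.64 to 0.74 for IL6R over IL6ST, from 0.35 to 0.41 for IL3RA over CSF2RB and from -0.33 to -0.15 for CSF2RA over CSF2RB. The median log2 fold change of all tested features was at most 0.0117 under every setting. Depth limits CSF2RA and IL3RA most, at 151 to 332 counts per library.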
